A study of Mus musculus with 7 samples.

Results

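The genes described here are 10 genes of pulmonary surfactant, namely the 4 surfactant proteins (Sftpa1, Sftpb, Sftpc and Sftpd) and 6 genes whose products process, store or recycle surfactant (Abca3, Lamp3, Napsa, Slc34a2, Lpcat1 and Ctsh). They were chosen by symbol for their known role in alveolar type 2 cells, and all 10 were found among the 28828 entries of the count table. They were followed in whole lung of C57BL/6 mice, in 3 libraries from mice with a knockout of Scgb3a2 (KO3, KO4 and KO5) and in 4 libraries from wild type mice (WT2, WT3, WT4 and WT6). Scgb3a2 encodes a secretoglobin released by airway club cells. The labels give neither the kind of knockout allele nor the age or sex of the mice. They do not tie libraries to separate mice either, and p-values therefore measure only the spread between these libraries.

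Surfactant is a film of phospholipid and protein that lowers surface tension in the air spaces. Alveolar type 2 cells make its proteins as precursors, trim SP-B and SP-C with proteases, pack them with lipid into lamellar bodies and release these into the air space, where type 2 cells and alveolar macrophages take the material up again. The collectins SP-A and SP-D bind microbes and are secreted largely apart from lamellar bodies, while the small hydrophobic SP-B and SP-C spread the lipid film.

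Promoter sequences show how these genes differ at their starts. RefSeq (GRCm38.p6) promoters were matched for 6 of the 10 genes (Sftpa1, Sftpb, Abca3, Lamp3, Slc34a2 and Lpcat1). The 250 bases before the RefSeq start are printed for 2 surfactant proteins and for 2 lamellar body membrane proteins. These genes differed in their order across libraries as given further on. Capitals mark CTCAAG (a core bound by the lung factor NKX2-1), TGTTTNC (a core bound by FOXA factors), TATAA (the TATA box, plus strand only) and TCACNCCAC (a sterol response element). All but the TATA box were searched on both strands, and no matches overlapped in these windows.
Sftpa1 (chr14:41131538-41131787, plus strand): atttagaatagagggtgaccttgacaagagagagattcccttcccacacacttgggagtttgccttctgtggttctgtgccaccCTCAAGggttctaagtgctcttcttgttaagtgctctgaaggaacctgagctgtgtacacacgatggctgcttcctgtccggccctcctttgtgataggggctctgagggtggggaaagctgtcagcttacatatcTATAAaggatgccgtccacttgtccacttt
Sftpb (chr6:72304360-72304609, plus strand): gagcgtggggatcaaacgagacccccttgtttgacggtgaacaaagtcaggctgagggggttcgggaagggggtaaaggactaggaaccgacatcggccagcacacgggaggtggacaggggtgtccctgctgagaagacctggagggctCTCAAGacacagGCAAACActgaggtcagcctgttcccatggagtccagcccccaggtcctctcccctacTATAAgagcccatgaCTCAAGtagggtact
Lamp3 (chr16:19706366-19706615, minus strand): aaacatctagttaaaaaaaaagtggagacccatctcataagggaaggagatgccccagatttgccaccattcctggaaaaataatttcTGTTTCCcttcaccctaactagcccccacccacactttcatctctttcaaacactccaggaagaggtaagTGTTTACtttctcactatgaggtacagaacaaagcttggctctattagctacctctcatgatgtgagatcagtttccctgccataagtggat
Abca3 (chr17:24351773-24352022, plus strand): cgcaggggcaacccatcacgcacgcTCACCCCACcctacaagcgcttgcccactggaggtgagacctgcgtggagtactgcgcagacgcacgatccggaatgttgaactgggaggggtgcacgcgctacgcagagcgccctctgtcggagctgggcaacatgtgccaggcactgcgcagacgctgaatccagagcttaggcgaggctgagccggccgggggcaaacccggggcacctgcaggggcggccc
Both surfactant protein promoters held a TATA box at -30 to -26 from the start. Sftpb held CTCAAG at -100 to -95 and again at -15 to -10, with 1 FOXA core between them at -88 to -82 on the minus strand, and Sftpa1 held 1 CTCAAG at -166 to -161. Lamp3 held 2 FOXA cores, and Abca3 held the 1 sterol element, at -225 to -217. Slc34a2 and Lpcat1 held none of the 4 motifs in this window, as spelled here. Only the letters TATAA were taken as the TATA box. The Slc34a2 window holds the related letters TATATATA near its end, which were not counted. That window (chr5:53049103-53049352) lies inside the annotated span of the gene given further on, not before it. The spans come from GENCODE, while windows and motif positions are counted from the RefSeq start. The windows of Sftpa1, Lamp3, Abca3 and Lpcat1 also run into the GENCODE span of their gene at the end nearest the start. Among all 32851 promoters of the table, 13.3% held CTCAAG, 17.8% the FOXA core, 16.0% the TATA box and 1.05% the sterol element. The GC content was 58.4% in Sftpb, 42.4% in Lamp3 and 67.6% in Abca3, against a median of 52.4% over all promoters. These matches are letters in a window and not evidence of binding.

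The libraries held 13071262 to 16480006 counts. Knockout of the targeted gene was visible in each of them, with Scgb3a2 at 1.28, 1.21 and 2.68 CPM (read counts scaled to a common library size, with TMM factors) in KO3, KO4 and KO5, against 253, 266, 195 and 293 CPM in WT2, WT3, WT4 and WT6. The albumin gene Alb, a liver marker used as a check of the tissue, had 5 to 8 counts in knockout and 4 to 26 counts in wild type libraries. Libraries differed in ways that the genotype does not explain. KO3, KO4, WT3 and WT4 were closest to each other over all genes tested, with a chi-square of 4.48 to 8.12 per degree of freedom between any pair of them. KO5 and WT6 were closer to each other (9.74) than to any other library (19.2 to 29.7), and WT2 lay at 14.3 to 24.0 from all others.

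Surfactant genes were among the most abundant transcripts of the lung. Together the 10 genes held 1.93%, 1.89% and 1.55% of all counts in KO3, KO4 and KO5, and 1.64%, 1.92%, 1.95% and 1.74% in WT2, WT3, WT4 and WT6. The mean share was 1.79% ± 0.205 in knockout lung (SD, n = 3) and 1.81% ± 0.145 in wild type lung (SD, n = 4), so the difference of -0.024 percentage points was smaller than either SD. It was 0.094 without KO5, 0.012 without WT3 and 0.02 without WT4, on the other side of 0. Counting error was far smaller than this spread, with an exact binomial interval (95%) of 1.546% to 1.559% in KO5. KO5 had the lowest share of all 7 libraries and WT2 the next lowest.

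**Figure D1:**
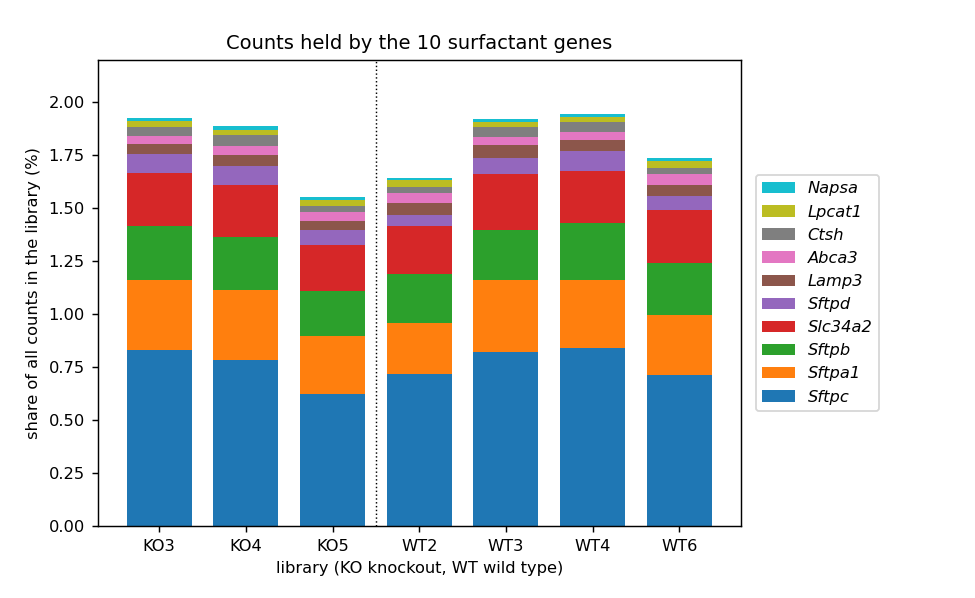
Share of all counts in each library held by the 10 surfactant genes, in percent on the vertical axis, with knockout libraries left of wild type libraries and each colour 1 gene. Sftpc fills the largest part of every bar, and the bars of KO5 (1.55%), WT2 (1.64%) and WT6 (1.74%) are the lowest.

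Levels of different genes were compared per length, as CPM per kilobase of merged exons. Sftpc, the precursor of SP-C, came first with 7233 ± 1354 in knockout (SD, n = 3) and 7545 ± 932 in wild type lung (SD, n = 4), and ranked 2 among 14638 protein-coding genes. Sftpb, the precursor of SP-B, followed at 1217.5 ± 164 in knockout and 1258 ± 108 in wild type lung. Sftpa1, which encodes SP-A, stood at 1087 ± 155 in knockout and 1047 ± 184 in wild type lung. The ranges of Sftpb (1030.1 to 1413) and Sftpa1 (844 to 1223) over the 7 libraries overlapped, although Sftpb was above Sftpa1 within each of the 7, by least in WT3 (1244 against 1223). The phosphate transporter Slc34a2 (485 ± 47.5 over all 7 libraries) and Sftpd, which encodes SP-D (320.2 ± 71.6), formed the next step. Lamp3 stood at 154 ± 21.1 and Ctsh at 86.8 ± 27.7 CPM per kilobase, and the ranges of these neighbours (117 to 187 and 55.8 to 120) met at their edges. The low end of Ctsh also reached into the range of its next neighbour Lpcat1 (53.7 to 71.1). Lpcat1 (60.1 ± 7.49), Napsa (55.1 ± 5.04) and Abca3 (45.4 ± 5.33) closed the order with overlapping ranges. The highest mean level was 163-fold the lowest. With the length of the longest transcript in place of merged exons the ratio was 147, and only Lpcat1 and Napsa changed places.

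**Figure D2:**
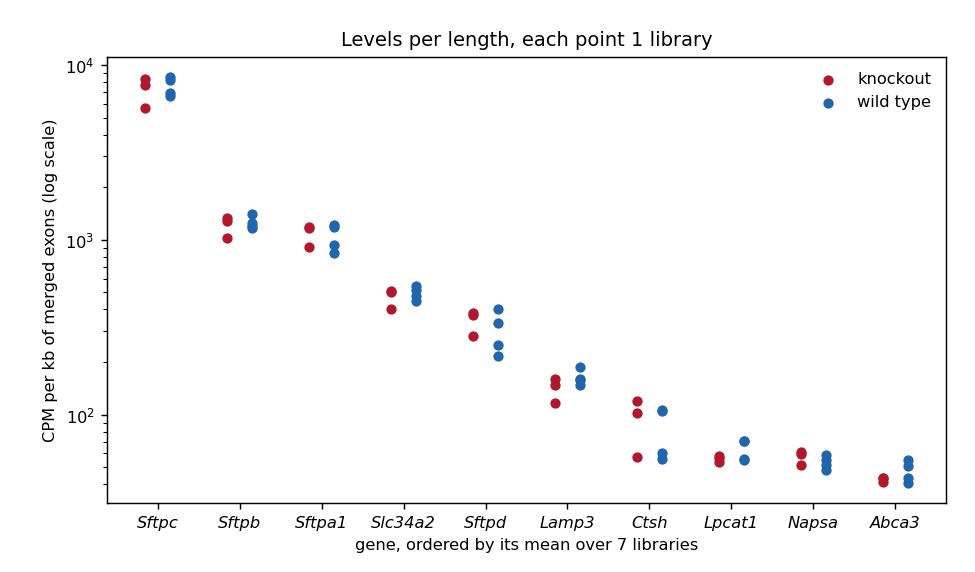
CPM per kilobase of merged exons (log scale) for each of the 10 genes, ordered by their mean, with each point 1 library and knockout drawn left of wild type. The points of Sftpc lie between 5703 and 8483, and those of Abca3 between 40.6 and 54.7.

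The comparison of knockout with wild type lung asked whether loss of the airway secretoglobin goes with a different level of surfactant transcripts. No surfactant gene passed the test, and the values of the genotypes overlapped for each of the 10. Fold changes are given as log2 of knockout over wild type from edgeR's quasi-likelihood test across all 19832 genes tested, with the standard error (SE) and a 95% interval that is not adjusted for the number of genes. The adjusted p was 0.9998 for each of the 10 genes.

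The collectin genes lie 35.8 kb apart on chromosome 14, on opposite strands. Sftpd (14:41172214-41185149, minus strand) had 923, 898 and 681 CPM in KO3, KO4 and KO5, against 525, 810, 976 and 603 CPM in WT2, WT3, WT4 and WT6. The lowest 2 libraries (WT2 and WT6) were both wild type, as was the highest (WT4). Its log2 fold change was 0.20 ± 0.20 (SE), the highest of the 10. Sftpa1 (14:41131782-41136452, plus strand) had 3364, 3362 and 2597 CPM in the knockout libraries and 2415, 3499, 3376 and 2686 CPM in the wild type libraries, in the same order as before, with a log2 fold change of 0.05 ± 0.17. For both genes WT2 was the lowest library and KO5 the lowest knockout library. The ratio of Sftpa1 to Sftpd counts was 3.73 ± 0.083 in knockout (SD, n = 3) and 4.21 ± 0.512 in wild type lung (SD, n = 4), with WT4 (3.46) below the knockout libraries and the other wild type libraries above them.

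The hydrophobic surfactant proteins had log2 fold changes well inside their standard errors. Sftpc (14:70520949-70524081, minus strand) had 8559, 7982 and 5897 CPM in KO3, KO4 and KO5, against 7123, 8475, 8771 and 6836 CPM in WT2, WT3, WT4 and WT6, with a log2 fold change of -0.06 ± 0.17. Sftpb (6:72304610-72314371, plus strand) had 2627, 2534 and 2027 CPM in the knockout libraries and 2300, 2449, 2782 and 2374 CPM in the wild type libraries, with a log2 fold change of -0.05 ± 0.14. KO5 was the lowest library and WT4 the highest for both genes, and without KO5 the log2 fold changes were 0.09 for Sftpc and 0.06 for Sftpb. Counts of Sftpc stood at 3.11 ± 0.179 times those of Sftpb in knockout (SD, n = 3) and 3.15 ± 0.240 times in wild type lung (SD, n = 4).

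The proteases that trim these precursors differed from each other in their spread over libraries. Napsa, the aspartic protease napsin A (7:44572380-44586862, plus strand), had 159, 164 and 137 CPM in KO3, KO4 and KO5, against 128, 136, 147 and 156 CPM in WT2, WT3, WT4 and WT6, with a log2 fold change of 0.11 ± 0.11 and the smallest spread within genotypes of the 10 genes (SD of log2 CPM 0.13). Without WT6 and KO5 its log2 fold change was 0.24, at an unadjusted p of 0.0319 (adjusted p = 0.9998, edgeR). Ctsh, the cysteine protease cathepsin H (9:90054152-90076089, plus strand), had 460, 542 and 257 CPM in the knockout libraries and 272, 470, 480 and 251 CPM in the wild type libraries. Its values fell into a low set (KO5, WT2 and WT6) and a high set (the other 4), each with both genotypes in it, and the highest library stood 2.16-fold above the lowest. The log2 fold change of Ctsh was 0.19 ± 0.32, and -0.04 without KO4. Its SD of 0.53 within genotypes was the largest of the 10 genes.

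Among the lamellar body proteins, Abca3 (17:24351950-24410201, plus strand), the transporter that loads phospholipid, had 387, 408 and 408 CPM in KO3, KO4 and KO5, against 479, 381, 406 and 513 CPM in WT2, WT3, WT4 and WT6. The knockout libraries lay close together, inside the wild type range, and the log2 fold change was -0.15 ± 0.12. Lamp3 (16:19653378-19706375, minus strand), a glycoprotein of the limiting membrane, had 495, 540 and 393 CPM in the knockout libraries and 532, 629, 540 and 498 CPM in the wild type libraries, with the lowest log2 fold change of the 10 at -0.21 ± 0.13. KO3 and KO5 lay below all wild type libraries, while KO4 was level with WT4. Without KO5 the value was -0.08, and with a term for WT6 and KO5 it was -0.19 at an unadjusted p of 0.0447 (adjusted p = 0.954, edgeR's quasi-likelihood test).

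Genes of lipid and phosphate handling gave the same picture. Slc34a2 (5:53038081-53071664, plus strand), the transporter that clears phosphate from the alveolar fluid, had 2548, 2511 and 2028 CPM in KO3, KO4 and KO5, against 2226, 2722, 2599 and 2385 CPM in WT2, WT3, WT4 and WT6, with a log2 fold change of -0.07 ± 0.14. Lpcat1 (13:73467197-73516422, plus strand), the acyltransferase that remodels phosphatidylcholine to its surfactant form, had 260, 249 and 270 CPM in the knockout libraries and 327, 258, 255 and 329 CPM in the wild type libraries, with a log2 fold change of -0.17 ± 0.12. WT2 and WT6 lay above all knockout libraries for Lpcat1, as for Abca3, while WT3 and WT4 lay among the knockout libraries or just below them.

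**Figure D3:**
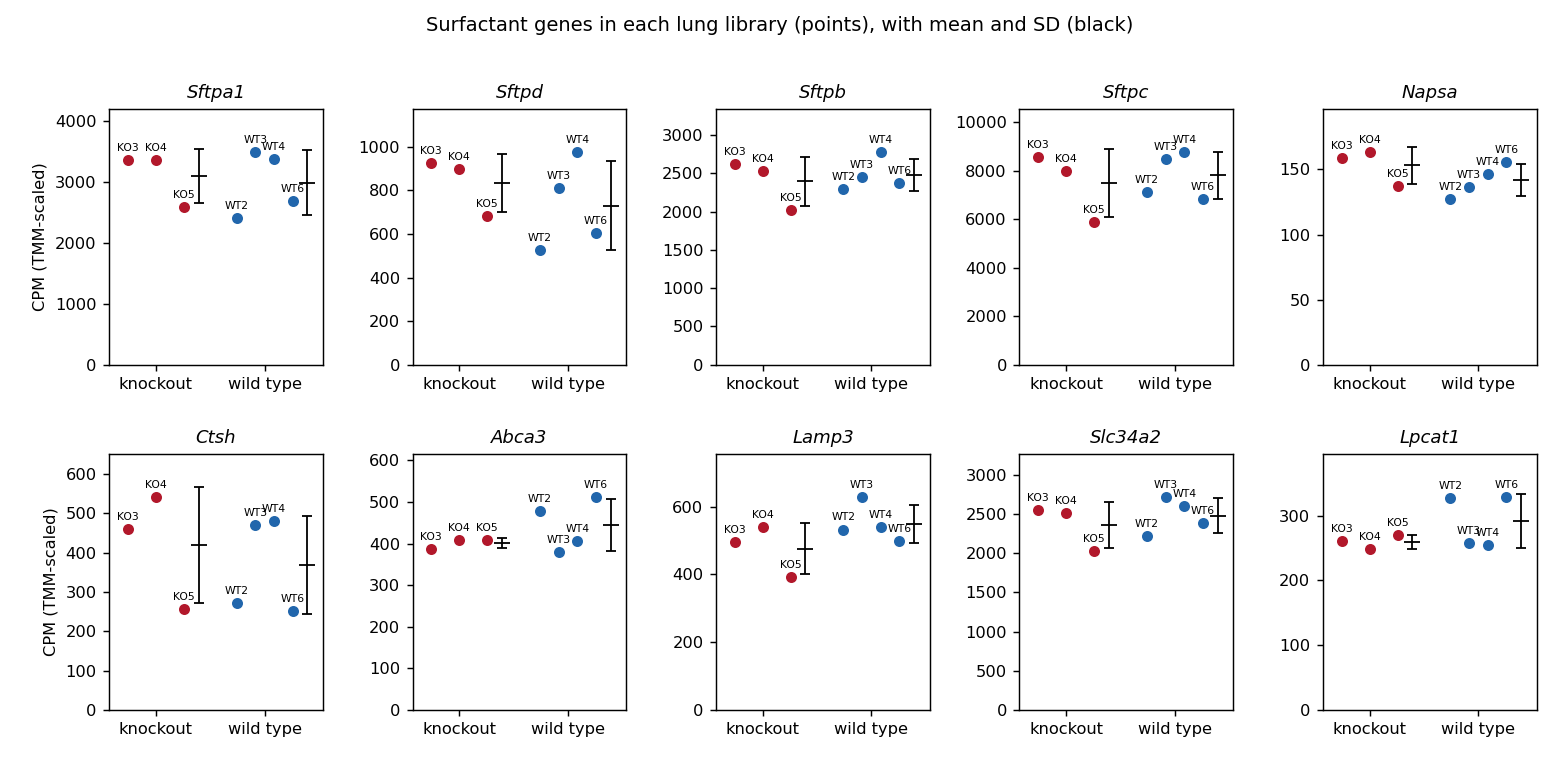
CPM of the 10 genes in each library, with knockout left of wild type, each point 1 library and the black bar the mean with SD (n = 3 and n = 4). The genotypes overlap in every panel, and KO5 is the lowest knockout library for 8 of the 10 genes.

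Of the 10 genes, 4 had a positive and 6 a negative log2 fold change, with a median of -0.05, against 48.0% positive and a median of -0.0068 over all 19832 genes tested. No gene of the 10 was called at an adjusted p under 0.05, where 0.0353% of all genes were (0.0252% higher and 0.0101% lower in knockout), and none had an unadjusted p under 0.05, where 2.87% of all genes did. DESeq2 also called none of the 10, against 0.237% of all genes. The genotypes did not separate for any of the 10 genes, against 3.72% of all genes (2.11% with all knockout values above and 1.61% with all below those of wild type). By these counts of calls and of separated genes the 10 genes were near the background. With 3 and 4 libraries the counts do not show that levels were the same. The 95% intervals, not adjusted for the number of genes, give a range for each change in this fit. All 10 lay within a 2-fold change either way, and 8 lay within 1.5-fold, the exceptions being Sftpd (-0.26 to 0.65 on the log2 scale) and Ctsh (-0.53 to 0.91). For Sftpc the interval ran from 0.742-fold to 1.24-fold, and for Sftpb from 0.786-fold to 1.19-fold. The 1.5-fold bound did not hold for Sftpc without KO3 (lower bound -0.61 on the log2 scale). Nor did it hold for Lamp3 without KO3 (-0.60) or without KO4 (-0.65). The 2-fold bound did not hold for Ctsh in 6 alternatives, where its upper bound on the log2 scale was 1.13 without KO5, 1.08 without WT3, 1.07 without WT4, 1.06 with no filter on low counts, 1.03 without WT6 and KO5, and 1.004 without KO3. The spread within genotypes was 0.13 to 0.53 (SD of log2 CPM) in the 10 genes. It was above the median of 0.15 of the 2285 genes with a mean of at least 100 CPM in 9 of the 10. The 5th to 95th percentile of log2 fold changes in those abundant genes was -0.16 to 0.11, which by definition leaves out 10% of them. Outside it lay 5 of the 10 surfactant genes (Sftpd, Ctsh, Napsa, Lamp3 and Lpcat1), and the intervals of all 5 included 0.

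**Figure D4:**
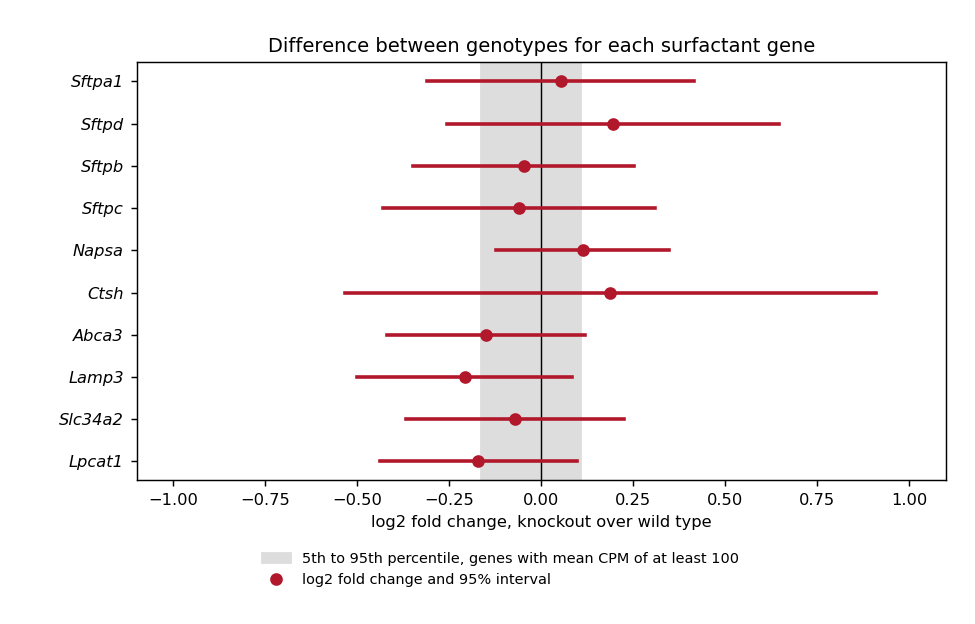
Log2 fold change of knockout over wild type lung (points) with its 95% interval (lines) for the 10 genes, and the 5th to 95th percentile of genes with a mean of at least 100 CPM (grey). Every interval includes 0, and that of Ctsh (-0.53 to 0.91) is the widest.

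The order of the libraries cut across genotypes. KO5, WT2 and WT6 were the 3 lowest libraries for Sftpa1, Sftpb, Sftpc, Sftpd, Slc34a2 and Ctsh, 6 of the 10 genes, where 10.2% of all genes tested had this order. Lpcat1 had the opposite order, with the same 3 libraries highest (9.75% of all genes), and for Abca3 WT6 and WT2 were the highest, with KO4 and KO5 next at 408 CPM each. The mean of the 10 genes, centred on 0 over the libraries, was 0.10, 0.12 and -0.24 log2 CPM in KO3, KO4 and KO5, against -0.13, 0.09, 0.13 and -0.07 in WT2, WT3, WT4 and WT6. The ratio of Sftpc to Abca3 counts was 22.1, 19.5 and 14.5 in KO3, KO4 and KO5, and 14.9, 22.3, 21.6 and 13.3 in WT2, WT3, WT4 and WT6. By contrast the ratio of Abca3 to Lpcat1 stayed between 1.46 and 1.64 in all 7 libraries. This order of libraries was noticed in the values and is given without a test.

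**Figure D5:**
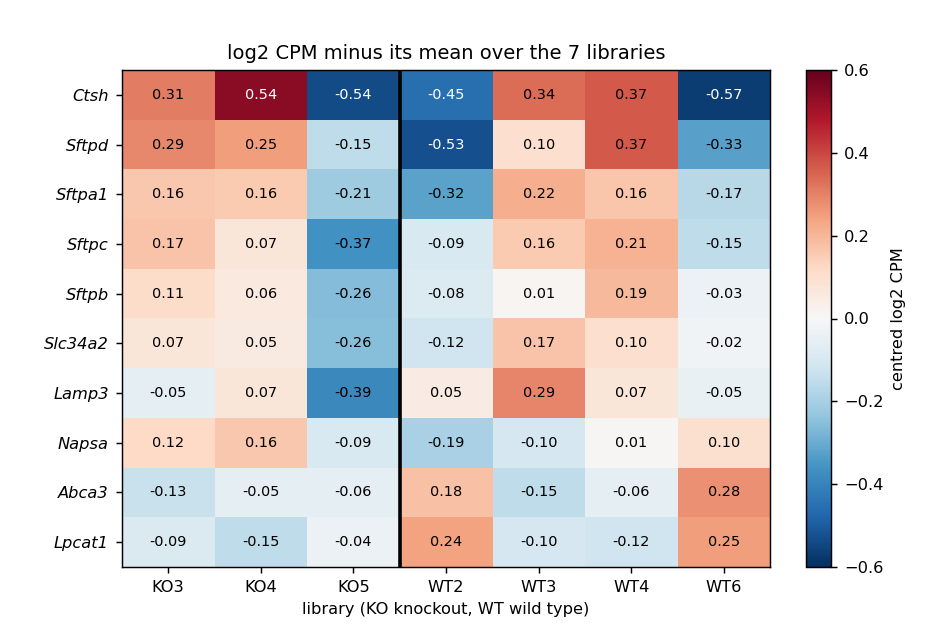
Log2 CPM of each gene minus its mean over the 7 libraries, with knockout libraries left of the black line and wild type libraries right of it, blue below and red above the mean. The columns of KO5, WT2 and WT6 are blue for the upper 6 genes (down to -0.57 for Ctsh in WT6), while Abca3 and Lpcat1 are red in WT2 and WT6 (0.18 to 0.28).

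Other transcripts moved with this order. Dbp, a clock-controlled transcription factor picked after its values were seen, had 15.2, 10.1 and 44.96 CPM in KO3, KO4 and KO5, against 84.1, 25.9, 17.9 and 66.1 CPM in WT2, WT3, WT4 and WT6. The clock repressor Nr1d1, picked in the same way, had 21.5, 22.98 and 59.7 CPM in the knockout libraries and 128, 40.9, 38.5 and 109 CPM in the wild type libraries. Both were highest in WT2, WT6 and KO5, as was their relative Nr1d2 (169, 120.3 and 254 CPM in the knockout libraries and 252, 221, 169.7 and 288 CPM in the wild type libraries). The clock activator Arntl did not show the reverse order in full, with 12.8, 17.6 and 8.98 CPM in the knockout libraries and 4.88, 7.98, 10.5 and 5.06 CPM in the wild type libraries, since WT3 lay below KO5. The labels give no time of collection. The summed level of 7 mesothelium markers, all 7 detected, was 110 to 225 CPM in knockout and 114 to 233 CPM in wild type lung, with the highest values in KO5 and WT6 and not in WT2. Summed alveolar type 1 markers (16 of 16 detected) were also lowest in KO5 (8763 CPM) and WT6 (9717 CPM), against 11320 to 11939 CPM in the other libraries. Summed club cell markers (9 of 9 detected) had the same 3 lowest libraries as most surfactant genes, at 20880, 18707 and 12512 CPM in KO3, KO4 and KO5, against 18074, 20817, 20449 and 14616 CPM in WT2, WT3, WT4 and WT6. Other type 2 cell markers (18 of 18 detected) summed to 7280, 7384 and 6583 CPM in KO3, KO4 and KO5. In WT2, WT3, WT4 and WT6 they summed to 6707, 7445, 7526 and 7460 CPM. KO5 and WT2 were the lowest for this sum, while WT6 lay between WT3 and WT4. The list includes Lyz2 and Cd74, which macrophages also make, so the sum does not come from type 2 cells alone. The part of these genes and cells in the surfactant values was not tested. In whole lung, fewer type 2 cells and less RNA per type 2 cell cannot be told apart.

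Lists of genes around surfactant were read from the same fit, and no list gene described here passed over all genes in edgeR's quasi-likelihood test. Of 18 other type 2 cell markers, 15 had a negative and 3 a positive log2 fold change, with a median of -0.07. The chemokine Cxcl15 (lungkine) had 389, 453 and 413 CPM in KO3, KO4 and KO5, against 536, 518, 458 and 715 CPM in WT2, WT3, WT4 and WT6, all knockout libraries below all wild type libraries. Its log2 fold change was -0.41 ± 0.15, with an unadjusted p of 0.0177 and an adjusted p of 0.9998. The calcium-binding protein S100g (-0.29 ± 0.14) and the fatty acid carrier Fabp5 (-0.27 ± 0.14) came next by p on the log2 scale, with overlapping genotypes.

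Transcription factors that drive surfactant genes gave a median of -0.04 over 12 genes, 4 positive and 8 negative. Nfib had 407 ± 19.4 CPM in knockout (SD, n = 3) and 447 ± 34.1 CPM in wild type lung (SD, n = 4). The pioneer factor Foxa1 had 28.9 ± 4.70 CPM in knockout and 25.3 ± 3.87 CPM in wild type lung, and Etv5, needed to maintain type 2 cells, 135 ± 5.61 CPM in knockout and 147 ± 11.97 CPM in wild type lung. All these differences missed the threshold.

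Enzymes of surfactant lipid synthesis had a median of -0.03 over 20 genes, 8 positive and 12 negative. The fatty acid elongase Elovl1 had 109, 123 and 100 CPM in KO3, KO4 and KO5, against 158, 114, 130 and 144 CPM in WT2, WT3, WT4 and WT6, with a log2 fold change of -0.30 ± 0.13. WT3 lay among the knockout libraries. The desaturase Scd1 (-0.26 ± 0.15) and fatty acid synthase Fasn (-0.21 ± 0.14) had overlapping genotypes too. For lamellar body trafficking and secretion the median was 0.0069 over 22 genes, 12 positive and 10 negative. Anxa7, an annexin of lamellar body fusion, had 131, 125 and 119 CPM in the knockout libraries and 138, 142, 136 and 138 CPM in the wild type libraries, without overlap, at a log2 fold change of -0.15 ± 0.09 and an adjusted p of 0.9998. The nucleotide receptor P2ry2 (-0.19 ± 0.18) and the adenosine receptor Adora2b (0.20 ± 0.19), which stimulate secretion, went in opposite directions.

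On the side of clearance, 14 of 19 genes of alveolar macrophages and their surfactant catabolism had a positive and 5 a negative log2 fold change, with a median of 0.08. Csf2rb2, a beta chain of the mouse interleukin-3 receptor related to the GM-CSF receptor chain, had 10.4, 15.7 and 13.5 CPM in KO3, KO4 and KO5, against 6.57, 8.88, 10.7 and 9.56 CPM in WT2, WT3, WT4 and WT6. Only WT4 reached above the lowest knockout library, and the log2 fold change was 0.56 ± 0.20 at an adjusted p of 0.9998. The scavenger receptor Marco (0.37 ± 0.23) and Krt79 (0.23 ± 0.17) overlapped between genotypes. The summed list level was 971 to 1194 CPM in knockout and 888 to 1092 CPM in wild type lung.

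Of 10 listed collectins, ficolins and C1q chains, pattern recognition proteins with a build like that of SP-A, 8 were in the count table. Enough counts for the test were found for 5. All 5 had a positive log2 fold change (median 0.15), against 48.0% of all genes tested. Among them were C1qc (0.23 ± 0.15), Colec12 (0.14 ± 0.09) and C1qa (0.15 ± 0.10), and none of the 5 passed the threshold. C1qc and C1qa are chains of the same protein, so the 5 signs are not all separate observations. Colec12, a membrane-bound scavenger collectin, had 180, 183 and 176 CPM in the knockout libraries and 157, 159, 155 and 179 CPM in the wild type libraries. Genes of endoplasmic reticulum stress, which misfolded SP-C precursors can induce, had a median of -0.0059 over 17 genes, 7 positive and 10 negative. Edem1 of glycoprotein degradation had 97.2 ± 27.4 CPM in knockout (SD, n = 3) and 83.6 ± 11.4 CPM in wild type lung (SD, n = 4), with KO5 (129) the highest library. Trib3 (0.26 ± 0.27) and Atf3 (-0.20 ± 0.23) had standard errors larger than their log2 fold changes.

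Neighbouring epithelium had no gene past the threshold in the edgeR fit with genotype as the only term and all libraries kept. An unadjusted edgeR p under 0.05 was found for 0 of 16 alveolar type 1 markers and 2 of 11 genes of transitional alveolar epithelium. It was found for 2 of 9 club cell markers, against 2.87% of all genes tested. Alveolar type 1 markers had a median of -0.06 over 16 genes, 4 positive and 12 negative, led by Rtkn2 (-0.21 ± 0.16), Vegfa (-0.21 ± 0.17) and Limch1 (-0.16 ± 0.14). Genes of transitional alveolar epithelium had a median of -0.03 over 11 genes. Among them Lcn2, which neutrophils and airway cells also make, had 225, 334 and 192 CPM in KO3, KO4 and KO5, against 80.7, 136, 184 and 60.1 CPM in WT2, WT3, WT4 and WT6, with no overlap and a log2 fold change of 1.12 ± 0.40 (adjusted p = 0.9998). Hbegf (-0.40 ± 0.17) and Itgb6 (-0.32 ± 0.20) of the same list had opposite signs to Lcn2. Club cell markers had a median of -0.05 over 9 genes, with Scgb3a1 at 0.61 ± 0.25, Hp at -0.28 ± 0.13 and Cyp2f2 at -0.24 ± 0.12 on the log2 scale. The genotypes overlapped for Scgb3a1, Hp and Cyp2f2. Scgb3a1 had 123, 121 and 248 CPM in KO3, KO4 and KO5, against 96.5, 98.1, 106 and 130 CPM in WT2, WT3, WT4 and WT6. Only KO5 lay above the wild type range, and without KO5 the log2 fold change of Scgb3a1 was 0.19.

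Markers of other cells in the tissue had no call in that edgeR fit either. An unadjusted edgeR p under 0.05 was found for 5 of 5 tested plasma cell markers and 5 of 6 heart muscle markers. The count was 0 of 6 for capillary endothelium and 0 of 7 for mesothelium, against 2.87% of all genes. Plasma cell markers summed to 286, 810 and 1798 CPM in KO3, KO4 and KO5, against to 86.6 to 93.4 CPM in wild type lung. Their 5 tested genes had a median log2 fold change of 3.35, with Igkc (3.35 ± 0.49, adjusted p = 0.406), Igha (3.43 ± 0.67, adjusted p = 0.965) and Jchain (3.97 ± 0.91, adjusted p = 0.9998). DESeq2 called these 3 genes, and edgeR called Igkc and Igha without KO3. Reads of immunoglobulin variable segments can be split among near-identical segments, but no variable segment is in this list. KO5 had the highest plasma cell sum and the lowest surfactant share (1.55%). KO4, with the next highest sum, had a share of 1.89%. WT2 and WT6, with sums of 91.6 and 86.6 CPM, had the next lowest shares (1.64% and 1.74%). Heart muscle markers, of the pulmonary vein wall or adjoining heart, summed to 368 to 450 CPM in knockout and 381 to 826 CPM in wild type lung (median -0.68 over 6 genes, all negative), with Tnni3 at -0.68 ± 0.25, Myl4 at -0.85 ± 0.32 and Myh6 at -0.67 ± 0.26. Capillary endothelium had a median of -0.16 over 6 genes, led by Kdr (-0.26 ± 0.12), Cldn5 (-0.21 ± 0.13) and Plvap (-0.19 ± 0.14). In the mesothelium list (median -0.06 over 7 genes), Rspo1 (-0.33 ± 0.21), Msln (0.68 ± 0.82) and Lrrn4 (-0.50 ± 0.67) came first by p. The part of these cells in the surfactant values was not tested.

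The genes whose profile over the 7 libraries was most like the mean of the 10 surfactant genes were Osbpl9, Tom1, Tmem248, Nde1 and Ildr1. Likeness was the root mean square difference between centred log2 CPM values over 7 libraries, which was 0.029 for Osbpl9 and Tom1, 0.034 for Tmem248, 0.036 for Nde1 and 0.037 for Ildr1. Osbpl9, a lipid-binding protein of the oxysterol-binding family, had 257, 268 and 205 CPM in KO3, KO4 and KO5, against 215, 260, 258 and 222 CPM in WT2, WT3, WT4 and WT6. KO5, WT2 and WT6 were the 3 lowest libraries for each of these 5 genes. Their log2 fold changes lay between 0.00063 (Ildr1) and 0.04 (Nde1). Because the 5 genes were picked by this likeness, both traits follow from the choice and are not separate findings.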

How the data were processed

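Whole-lung RNA was extracted with Trizol and sequenced on Illumina libraries, per the labels' protocols. The authors deposited raw read counts for each gene and library. STAR, DESeq2 and the build mm10 are named in the submitters' processing notes, without versions. Which counter, annotation and strand option were used is not stated there. Exons of Abca3 share 914 bases with D330041H03Rik and exons of Napsa share 502 bases with Gm15396, both on the other strand, so reads in these stretches may have been counted for either gene or dropped. The neighbours themselves were counted at up to 9.07 and 0.964 CPM. Gene positions, lengths and overlaps came from GENCODE M21 (GRCm38).

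Genes were tested with edgeR 4.0.16 (R 4.3.3) using filterByExpr by genotype (19832 of 28828 entries kept), TMM scaling, robust quasi-likelihood fits and genotype as the only term, two-sided, with Benjamini-Hochberg adjustment over all genes tested and 0.05 as threshold. Centred log2 CPM used a prior count of 2. The alternative test was DESeq2 1.42.0. The fit was also run on simulated counts drawn independently for each library, and no conclusion is drawn from that run here. The smallest count of any surfactant gene in a library was 1892, so that spread between libraries, not counting error, limits precision. A count of 0 allows 0.182 to 0.23 CPM (3 counts). No pair of libraries agreed within sampling noise.

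The surfactant genes and gene lists were chosen with earlier results of these data known. Named genes are the 10 surfactant genes, Scgb3a2, up to 3 genes with the smallest p of each list, and the 5 genes with a mean of at least 10 CPM most like the surfactant mean. Alb, Dbp, Nr1d1, Nr1d2 and Arntl stand outside this rule and were chosen after their values were seen. Alternatives were RLE size factors, library totals, scaling without the surfactant genes, no filter, DESeq2, a replicate block, a term for WT6 and KO5, leaving out this pair, and leaving out each library.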

Additional observations from a re-analysis of the deposited data

Results flagged for a closer look

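Among 81 wild type groups of 4 values, 4 had 1 library far from the other 3 by Dixon's ratio (the gap to the next library over the whole range). Chance flags about 1 in 20 groups. The summed CPM of other type 2 cell markers had a ratio of 0.901, with WT2 (6707 CPM) below the other wild type libraries (7445 to 7526 CPM). Tnni3 had a ratio of 0.958, with WT3 (19.5 CPM) low. Colec12 (0.838) and Msln (0.835) had WT6 high, at 179 and 55.3 CPM. None of the 10 surfactant genes, their summed share or their ratios was flagged in this way.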

How the results depend on the processing

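No surfactant gene was called under any of the 15 alternatives, and the lowest adjusted p of any of them was 0.954. Sftpd, Lamp3, Napsa and Lpcat1 kept their sign in all of them. Without WT6 and KO5 the log2 fold changes of Sftpb, Sftpc and Slc34a2 were 0.043, 0.029 and 0.011. With the numbers of the titles as a replicate block they were -0.031 for Sftpa1, 0.015 for Abca3, -0.056 for Adora2b and 0.014 for Plvap, and with no filter the log2 fold change of Ildr1 was -1.35e-05. Leaving out each library in turn gave -0.037 to 0.17 for Sftpa1, -0.12 to 0.064 for Sftpb, -0.17 to 0.089 for Sftpc, -0.13 to 0.031 for Slc34a2 and -0.041 to 0.45 for Ctsh. It gave -0.032 to 0.35 for Edem1, -0.28 to 1.38 for Msln, -1.20 to 0.20 for Lrrn4, -0.048 to 0.14 for Osbpl9, -0.070 to 0.11 for Tom1, -0.036 to 0.11 for Tmem248, -0.014 to 0.13 for Nde1 and -0.078 to 0.14 for Ildr1. The median of the 10 genes ranged from -0.12 to 0.08.

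Over all genes, 7 were called in the fit described, 47 with DESeq2, 29 with a term for WT6 and KO5, 14 without this pair, and 3 to 41 when each library was left out (41 without KO3, and 3 without WT2, WT3 or WT4). Of the genes in the other lists 0 were called, with 3 in DESeq2 (Igkc, Igha and Jchain) and 0 to 2 when each library was left out (Igkc and Igha without KO3). The replicate block called 140 genes in all and 8 of these lists. Genotypes share only numbers 3 and 4, which the labels do not tie to a litter or day, and deviations of same-numbered libraries correlated at 0.236 and 0.201 across genes against 0.236 and 0.221 for crossed numbers, so the numbers were not taken as pairs. The block leaves 1 residual degree of freedom. The cause of these shifts was not tested.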
